A study of Sus scrofa with 12 samples.

Results

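Pig preadipocytes, from which fat cells form, that had been transfected with an siRNA against F2RL2 were compared with cells that had received a control siRNA, both after 4 days of differentiation. The members are 6 of the 12 arrays of the study, 3 with F2RL2 siRNA and 3 with control siRNA, taken by the group in the sample titles. All cells came from subcutaneous tissue labelled female, and the labels give neither the number of pigs nor the origin of the replicates. The p-values therefore reflect the variation among these particular arrays, some or all of which may be technical. The control was AllStars Negative Control siRNA (QIAGEN). The F2RL2 siRNA was designed by SIGMA, and a second label field spells its target R2RL2. Adipose conversion used medium with 4.5 g/L glucose, 10% fetal bovine serum, 5 µg/ml insulin, 0.25 µM dexamethasone, 33 µM biotin, 17 µM pantothenate and 5 mM octanoate. Each array was hybridised with 2 dyes: Cy3 carried the transfected, differentiated cells, and Cy5 carried preadipocytes at day 0 that were neither transfected nor differentiated. Every value is therefore a log2 ratio of a day 4 sample to that common reference, and a difference between groups is a difference of such ratios. The other 6 arrays, with siRNAs against LGR4 and GPR124, served to estimate the spread and to sort probes by their direction in differentiation.

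F2RL2 encodes a protease-activated receptor, a G-protein-coupled receptor of the cell surface that is cleaved by thrombin and can act as a cofactor for other receptors of its family. Adipocyte differentiation is driven by insulin and glucocorticoid signals that act through transcription factors such as PPARG and CEBPA; genes of lipid storage are switched on while genes of the fibroblast-like precursor are switched off. The arrays identify probes by catalogue number, and none of the 43221 probes (0 matches) could be paired with a gene in the tables used here. The level of F2RL2 itself, the markers of fat cells and precursors, and genes of other cell types were not analysed here, so the knockdown and the labelled cell type were not checked. Probes are therefore described by their behaviour in differentiation, their brightness and their agreement across arrays.

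One array stood apart in the reference channel. On F2RL2 siRNA replicate 3 the median Cy5 signal of the 153 negative control spots was 128, against 54 to 58 on the other 11 arrays. Its Cy3 negative controls, at 58, equalled those of F2RL2 siRNA replicate 2 on the same slide. On this array 27003 probes were well above background in Cy5, against 31024 to 32394 on the other 5 arrays compared. The GPR124 arrays had fewer, at 23630, 26485 and 23594, so this count does not set the array apart in the series. The 3 control arrays and F2RL2 siRNA replicate 1 lay on slide 1, and F2RL2 siRNA replicates 2 and 3 lay on slide 2 with 2 LGR4 arrays. Slide and siRNA could thus be told apart for 1 F2RL2 array only. On the 6 arrays compared outlier spots numbered 1 to 4 per array, against up to 335 on the other 6, no probe was saturated, and log ratios correlated across probes at 0.97 to 0.98 between control arrays, 0.92 to 0.94 between F2RL2 arrays and 0.83 to 0.90 between the groups.

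With F2RL2 siRNA 5803 probes changed, 17.9% of the 32346 tested (limma, Benjamini-Hochberg adjusted p under 0.05). Of these, 3233 (10%) rose and 2570 (7.95%) fell. In this bulk RNA, fewer cells of a type and less of a transcript per cell cannot be told apart. Most changes were small: 422 of the called probes differed by under 0.25 on the log2 scale, 3207 by 0.25 to 0.5, 1664 by 0.5 to 1 and 510 (1.58% of those tested) by 1 or more. Over all tested probes the median difference was 0.021, with -0.41 at the 5th and 0.45 at the 95th percentile. The 3 F2RL2 arrays lay wholly on 1 side of the 3 control arrays for 37.9% of probes, 20.9% above and 17% below. With median centring in place of loess, 2181 probes were called and 69.0% of calls were higher, against 55.7% after loess. Without control siRNA replicate 3 the number of calls was 3624.

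The largest changes were mostly falls. At least a log2 difference of 1 was reached by 207 called probes that rose (0.64% of those tested) and 303 that fell (0.937%), and at least 2 by 7 that rose and 80 that fell. Falls outnumbered rises at 2 or more in all 16 alternative settings tried, with 50 to 148 falls against 6 to 76 rises. At 1 or more they did not in 2 of them: median centring gave 228 rises and 224 falls, and the software's processed signals gave 574 and 488. The 80 probes that fell most had median log2 ratios of 2.73, 2.66 and 3.02 on control arrays 1 to 3, and of 0.31, 0.43 and 0.34 on the F2RL2 arrays. These were probes far above the day 0 reference with control siRNA and close to it with F2RL2 siRNA. Control siRNA replicate 3 was the highest control array for 69 of the 80, and without it 69 probes fell by 2 or more. On the LGR4 arrays the same 80 probes had medians of 0.96, 1.33 and 1.56, and on the GPR124 arrays -0.13, -0.13 and -0.23. Among the 303 probes, 14 were not well above background in Cy3 on any F2RL2 array, so that their size there is only a bound. On no control array was Cy5 well above background for 20 of the 303, 7 of the 80 and 11 of the 207 probes that rose. The same held in Cy3 for 4 of the 207. Of the 80, 61 were well above background in both dyes on all 6 arrays. The 207 probes that rose had medians of -0.54, -0.51 and -0.57 on the control arrays and of 0.85, 0.55 and 0.66 on the F2RL2 arrays. F2RL2 siRNA replicate 1 was the highest of its group for 129 of them. The same 207 probes had medians of 0.45, 0.51 and 0.40 on the LGR4 arrays, and of -0.47, -0.30 and -0.36 on the GPR124 arrays. As a set they were thus also above the control arrays with LGR4 siRNA. No probe of either set overlapped between the groups, which the choice of the sets on these same arrays nearly required. Of all called probes, whatever their size, 99.9% did not overlap. The smallest gap between the groups was 0.50 among the rises and 0.25 among the falls.

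Probe AGPOA3-21213 rose most among probes well above background in both channels on all 6 arrays. Its log2 ratio was 0.11, 0.20 and -0.020 on the control arrays and 2.94, 2.86 and 2.91 on the F2RL2 arrays. The control arrays were at the level of the day 0 reference and the 3 F2RL2 arrays lay within 0.040 (SD) of one another. F2RL2 siRNA was 7.0-fold higher, a log2 difference of 2.81 with an SE of 0.078 (adjusted p from limma = 3.66e-09). Cy3 differed by 2.88 and Cy5 by 0.21. With LGR4 siRNA this probe was at -0.32 ± 0.083 and with GPR124 siRNA at -1.56 ± 0.090 (SD, n = 3), so that F2RL2 siRNA was higher than both (limma adjusted p = 6.21e-10 and 1.38e-11, in comparisons that called 13.9% and 41.4% of probes). The rise was thus seen in 1 of the 3 targeting groups.

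Probe AGPOA3-44204 had the second largest rise under the same criteria. It was at -0.839, -0.998 and -0.958 on the control arrays and at 1.74, 1.27 and 1.53 on the F2RL2 arrays, a difference of 2.44 (SE 0.15; limma adjusted p = 1.16e-06). Cells with control siRNA had less of this transcript than the reference, and all 3 F2RL2 arrays had more. It was higher still with LGR4 siRNA, at 3.78 ± 0.11, where the difference from F2RL2 siRNA passed (limma adjusted p = 1.71e-06), and at 1.16 ± 0.33 with GPR124 siRNA, where it did not (F2RL2 minus GPR124 0.35; limma adjusted p = 0.0825).

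Probe AGPOA3-50453 fell most. It was at 4.23, 4.22 and 4.93 on the control arrays and at 0.85, 0.49 and 0.75 on the F2RL2 arrays, which is 13.6-fold lower (log2 difference -3.76 with an SE of 0.32; adjusted p from limma = 8.77e-06). Control siRNA replicate 3 was the highest array, and every control array lay more than 3 units above every F2RL2 array. The change was in Cy3, at -3.58, with -0.12 in Cy5. With LGR4 siRNA it was at 2.45 ± 0.83, higher than with F2RL2 siRNA (limma adjusted p = 0.00293), and on GPR124 arrays it was not well above background in Cy3.

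Probe AGPOA3-21530 was at 3.38, 3.24 and 3.67 on the control arrays and at 0.24, 0.29 and 0.23 on the F2RL2 arrays, a difference of -3.18 (SE 0.21; limma adjusted p = 1.61e-06). The F2RL2 arrays agreed within 0.032 (SD). Its reference channel was lower as well, with a difference of -0.80 in Cy5 beside -3.74 in Cy3, although Cy5 carried the same kind of RNA on every array; the part of the reference in this ratio was not tested. It was at 2.43 ± 0.53 with LGR4 siRNA, higher than with F2RL2 siRNA (limma adjusted p = 3.27e-05), and at -0.12 ± 0.23 with GPR124 siRNA, where the difference did not pass (adjusted p = 0.186).

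**Figure D1:**
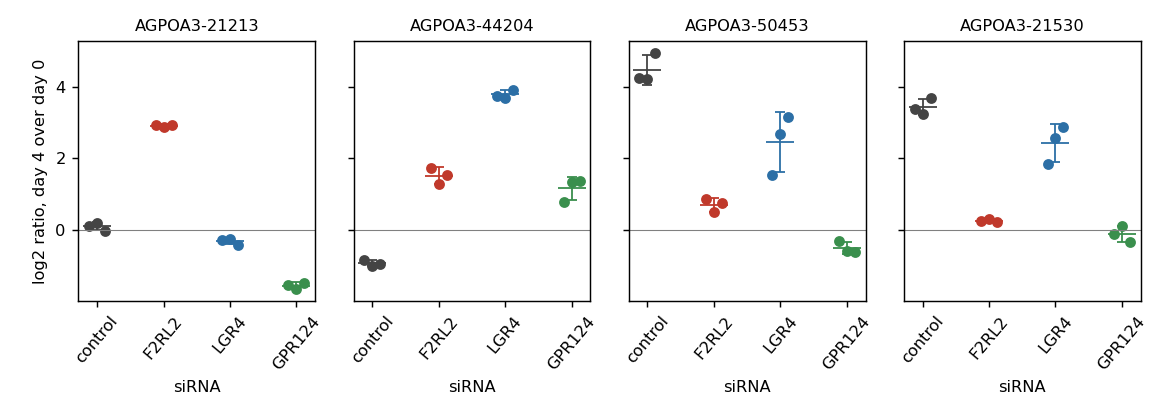
Log2 ratio of day 4 cells over the day 0 reference for the 2 probes that rose most and the 2 that fell most with F2RL2 siRNA, by siRNA group; points are single arrays, horizontal marks the group mean and bars the SD (n = 3). In all 4 panels the F2RL2 points lie apart from the control points, which the choice of probes required. AGPOA3-21213 is high in the F2RL2 group at 2.86 to 2.94 and near or below 0 in the other groups.

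To ask how the change related to differentiation, probes were sorted by the mean log ratio of the LGR4 and GPR124 arrays, which left the 6 compared arrays out of the class definition. A probe counted as raised or lowered where this mean differed from 0 (limma adjusted p under 0.05) and was at least 1 or at most -1; 807 probes were raised, 1322 lowered and 30217 neither. Effects that the siRNAs share enter these classes, and transfection and dye cannot be told apart from differentiation in them. Probes of both classes were called more often than the 17.9% of all probes. Of the raised probes 244 were higher and 159 lower with F2RL2 siRNA, 49.9% in all, and of the lowered probes 294 were higher and 114 lower, 30.9% in all. Among probes in neither class 2695 were higher and 2297 lower, or 16.5%. Of the calls, 60.5% in the raised class and 72.1% in the lowered class were higher, against 55.7% over all probes. With median centring 92.0% of the calls in the lowered class were higher. The 303 falls of 1 or more were 54 raised probes, 10 lowered probes and 239 in neither class. The 207 rises were 54, 49 and 104. By class, 13.4% of raised, 4.46% of lowered and 1.14% of other probes changed this much. The 303 falls had a median ratio of 1.75 with control siRNA (quartiles 1.13 and 2.60), though control arrays enter both this level and the fall. Most were thus above the reference with control siRNA but outside the raised class, which asks for 1 or more. Neither class does not mean unchanged: it held 10645 probes raised and 10211 lowered by under 1 (limma adjusted p under 0.05), and 9361 not called. Of the 239 falls there, 142 were raised by under 1, 28 lowered by under 1 and 69 not called.

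The median of the raised class was higher on all 3 F2RL2 arrays than on any control array. Its median log2 ratio was 1.38, 1.43 and 1.38 on the control arrays and 1.51, 1.51 and 1.53 on the F2RL2 arrays, which did not overlap. The median difference from the control mean was 0.15, 0.100 and 0.12 on the F2RL2 arrays, against -0.0077 to 0.0087 on single control arrays, and 0.11 in the fit, beside 0.021 for all probes. The shift lay in probes raised by 1 to 2, whose median difference was 0.13 over 639 probes. With classes taken from the control arrays, which then enter both the class and the difference, the direction was reversed: the median of the raised class was -0.25, with 140 probes called higher and 503 lower. In the 168 probes raised by 2 or more it was -0.026, with 47 called higher and 39 lower.

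In the lowered class the array medians and the per-probe differences disagreed. Its median log2 ratio was -1.59, -1.68 and -1.59 on the control arrays and -1.44, -1.58 and -1.52 on the F2RL2 arrays, which did not overlap. The per-probe differences from the control mean had a median of 0.14 on F2RL2 siRNA replicate 1, but of -0.019 and -0.00074 on replicates 2 and 3, which lay inside the range of single control arrays (-0.062 to 0.030). Replicate 1 is the array that shared a slide with the controls, and the part of the slide in this difference was not tested. The median of the class in the fit was 0.031, and -0.023 without F2RL2 siRNA replicate 1 and -0.0020 without control siRNA replicate 2. It was larger with Cy3 alone (0.079), with classes from the control arrays (0.12), with slide as a block (0.14) and after median centring (0.13). Still, 72.1% of calls in this class were rises, and 70.1% without F2RL2 siRNA replicate 1.

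**Figure D2:**
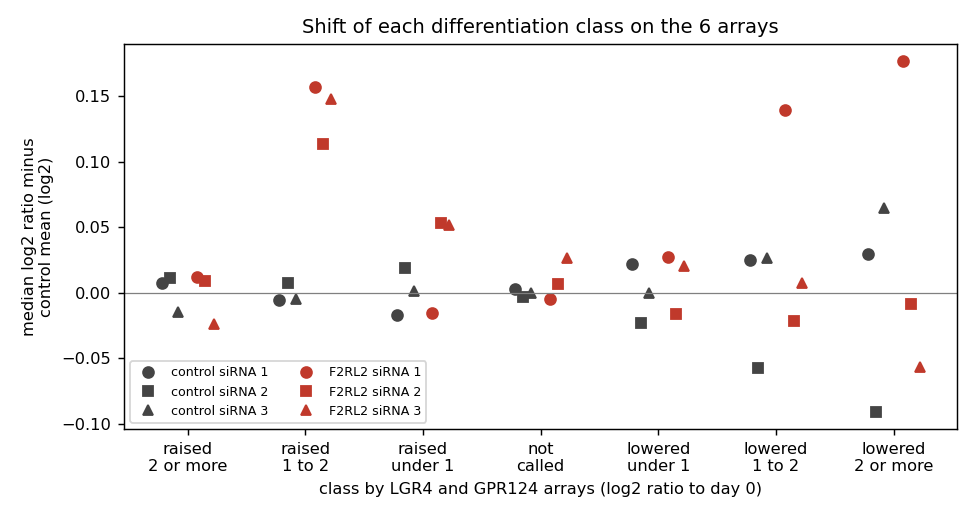
Median over probes of the log2 ratio minus the control mean (y axis, log2) in 7 classes of probes ordered by their day 4 to day 0 ratio on the LGR4 and GPR124 arrays (x axis); grey points are the 3 control arrays and red points the 3 F2RL2 arrays. In the class raised by 1 to 2 all F2RL2 arrays lie at 0.11 to 0.16, above every control array, whereas in the classes lowered by 1 or more F2RL2 array 1 alone lies high.

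Called probes of a class moved in opposite directions from different starting levels. The 244 raised probes that rose had medians of 0.93, 0.95 and 0.90 on the control arrays and 1.67, 1.55 and 1.63 on the F2RL2 arrays, so they were further above the reference than with control siRNA. The 159 raised probes that fell started higher, at 2.33, 2.31 and 2.41, and were at 1.33, 1.37 and 1.37 with F2RL2 siRNA, where 157 of the 159 still lay above the reference. The 294 lowered probes that rose went from -1.72, -1.78 and -1.74 to -1.08, -1.21 and -1.16, and 11 of them lay above the reference with F2RL2 siRNA, against 1 with control siRNA. The 114 lowered probes that fell went from -1.13, -1.18 and -1.07 to -1.67, -1.72 and -1.74. These sets were chosen by the difference itself, so their levels are a description, and control arrays enter both the starting level and the difference. In each set the control medians and the F2RL2 medians did not overlap.

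Among probes called, without overlap between groups and well above background in both dyes on all 6 arrays, the lowered class had its largest rise in a probe that crossed the reference level. It was at -1.20, -1.19 and -1.05 on the control arrays and at 0.89, 0.99 and 1.22 on the F2RL2 arrays (difference 2.18, SE 0.089; limma adjusted p = 8.03e-08). It stayed at -1.07 ± 0.066 with LGR4 siRNA and -1.43 ± 0.077 with GPR124 siRNA, and F2RL2 siRNA was higher than both (limma adjusted p = 4.10e-08 and 3.79e-09). Under the same criteria the largest fall of the lowered class was that of a probe at -0.55, -0.15 and -0.14 on the control arrays and at -2.61, -2.63 and -2.81 on the F2RL2 arrays (difference -2.41, SE 0.13; limma adjusted p = 5.39e-07). With LGR4 siRNA it was at -2.41 ± 0.18, which did not differ from F2RL2 siRNA by the test (difference -0.27; limma adjusted p = 0.230), and with GPR124 siRNA at -0.039 ± 0.20, which did (adjusted p = 4.20e-08). The largest rise and fall of the raised class were those of AGPOA3-44204 and AGPOA3-21530, given above. Those of probes in neither class were the changes of AGPOA3-21213 and AGPOA3-50453. These classes rest on the LGR4 and GPR124 arrays, and the level with control siRNA can differ from them. With control siRNA AGPOA3-44204, of the raised class, was at -0.93, and AGPOA3-50453, of neither class, was at 4.46.

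The number of changes called differed with brightness. Probes were divided by their mean log2 intensity of both dyes over all 12 arrays into 5 classes of equal size, class 1 the dimmest. The share called was 5.52%, 11.2%, 21.8%, 27.5% and 23.7% from class 1 to class 5, around the 17.9% of all probes. Both the difference and the spread moved with brightness. The median absolute difference was 0.095 in class 1, 0.12 in class 2 and 0.16 in each of classes 3 to 5. The median SD between control arrays went from 0.094 in class 1 to 0.062 in class 4 and 0.064 in class 5, and that between F2RL2 arrays from 0.12 to 0.11 and 0.095. F2RL2 arrays were thus more variable than control arrays in every class. The control arrays shared slide 1 whereas the F2RL2 arrays lay on slides 1 and 2, so slide and siRNA cannot be told apart in this spread. In class 1 only 296 of 6470 probes were well above background in both dyes on all 6 arrays, against 5399 of 6469 in class 2 and at least 6448 in each brighter class.

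Brighter probes also had more rises than falls. In class 4 there were 1058 rises and 722 falls and in class 5 884 and 646, whereas class 1 had 184 and 173, class 2 378 and 346 and class 3 729 and 683. This balance depended on the scaling, the filter, the treatment of slide and single arrays. With median centring 21.0% of calls in class 1 were rises, against 51.5% after loess, and 77.6% in class 5, against 57.8%. With Cy3 alone 39.3% of calls in class 1 were rises. The majority in class 1 turned to falls in 5 of the 6 fits that left out an array: there were 106 rises and 136 falls without control siRNA replicate 1, 131 and 151 without replicate 2 and 95 and 128 without replicate 3. Without F2RL2 siRNA replicate 2 there were 180 and 208, and without replicate 3 there were 94 and 154, whereas without replicate 1 there were 193 and 156. It also turned with a replicate block (142 and 164), with no filter on dim probes (155 and 166) and with the strict filter (113 and 157). With slide as a block there were 71 rises and 149 falls, and with brightness classes of the Cy5 signal 211 and 221. Rises kept the majority with processed signals (249 and 174), with only the 6 arrays compared (199 and 183) and with offset 16 (237 and 199). On F2RL2 siRNA replicate 3, the array with the high Cy5 negative controls, the median difference of class 1 from the control mean was 0.050, against -0.0055 and 0.017 on replicates 1 and 2; the part of the Cy5 signal in this was not tested.

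**Figure D3:**
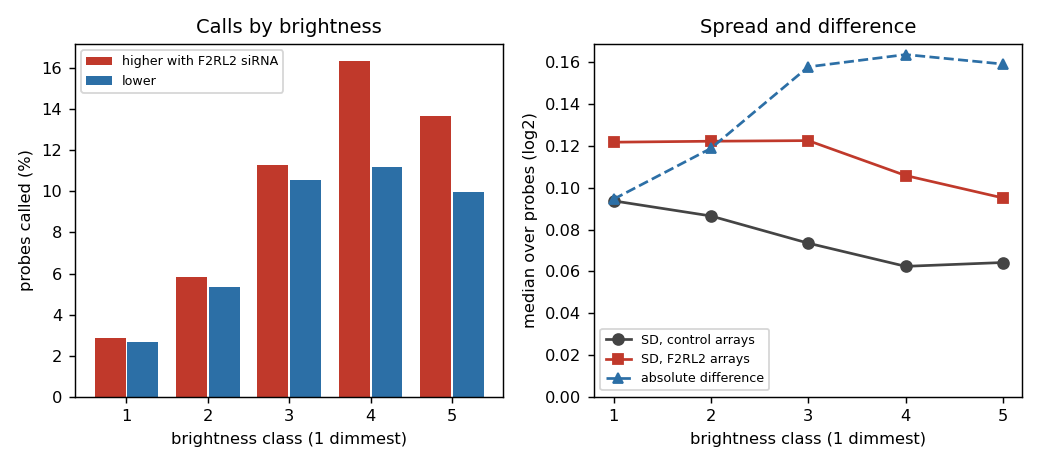
Left, percent of probes called higher (red) and lower (blue) with F2RL2 siRNA in 5 brightness classes from dimmest to brightest; right, the median over probes of the SD between the 3 arrays of each group and of the absolute difference between groups, in log2 units. Calls peak in class 4, where 16.4% of probes were higher and 11.2% lower, and the control SD is lowest there.

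Within a brightness class, probes of the raised class were called more often than those in neither. In class 3 the shares called were 43.8% of 272 raised probes, 23.8% of 378 lowered probes and 20.7% of the others. In class 4 they were 51.9% of 212, 41.0% of 395 and 25.7%, and in class 5 59.9% of 172, 32.9% of 432 and 21.9%. In class 2, 49.6% of 131 raised probes were called but 12.1% of 116 lowered ones, close to the 10.4% of the rest. Class 1 held 20 raised probes and 1 lowered probe, too few for a share. The median difference of the raised probes was 0.0065, 0.061, 0.13 and 0.20 in classes 2 to 5, and that of the lowered probes -0.026, 0.0060, 0.070 and 0.041.

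**Figure D4:**
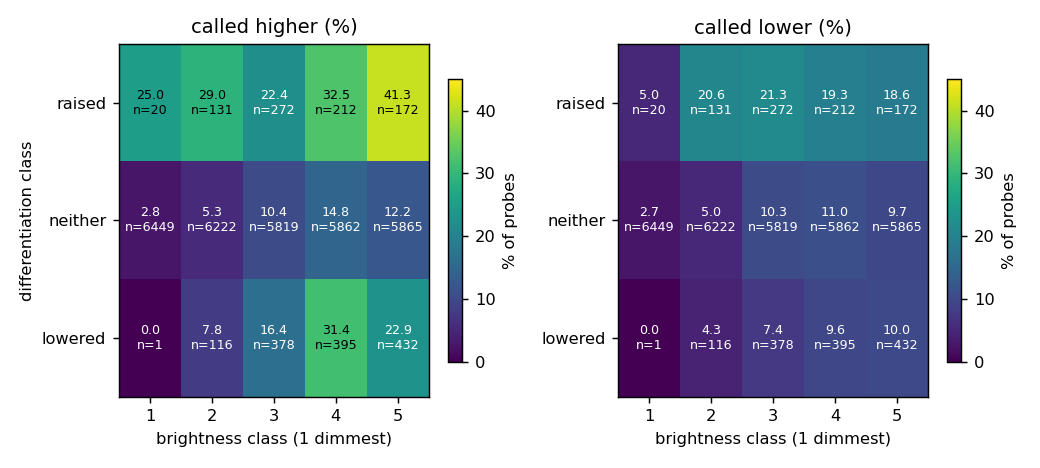
Percent of probes called higher (left) and lower (right) with F2RL2 siRNA, by brightness class (x axis) and by direction in differentiation (y axis); each cell gives the percent and the number of probes n. In the left panel the highest share is that of raised probes in class 5, at 41.3%; in the right panel raised probes of classes 2 to 5 lie at 18.6% to 21.3%.

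The changes described next were taken among probes that were called, did not overlap between groups and lay well above background in both dyes on all 6 arrays, which 2971 rises and 2321 falls met. Few class 1 probes met the last condition, so that sizes cannot be compared between class 1 and the others: without it class 1 held 9 called rises and 37 called falls of 1 or more. Among the class 1 probes that met it the largest rise was 0.48 (SE 0.090; limma adjusted p = 0.00258), from -0.15 ± 0.093 to 0.33 ± 0.043, and the largest fall was -0.50 (SE 0.090; adjusted p = 0.00197). In class 2 the largest rise was 1.60 (SE 0.098; adjusted p = 1.08e-06), from 0.90, 0.97 and 0.85 on the control arrays to 2.46, 2.55 and 2.51. In class 5 a probe at 0.19, 0.074 and 0.036 with control siRNA was at 2.54, 2.02 and 2.26 with F2RL2 siRNA (difference 2.18, SE 0.15; limma adjusted p = 3.53e-06), a level it also had with LGR4 siRNA, at 2.30 ± 0.074 over the 2 arrays not marked as outliers. The largest fall of class 5 was from 3.33, 3.06 and 3.48 to 0.62, 0.69 and 0.57 (difference -2.67, SE 0.20; limma adjusted p = 3.53e-06), with a Cy5 difference of -0.63 beside -3.11 in Cy3. That of class 4 went from 3.82 ± 0.14 to 0.91 ± 0.20 (limma adjusted p = 2.35e-05), with -1.51 in Cy5 beside -4.18 in Cy3.

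The called differences lay mainly in the sample channel. Among the 3233 rises the median Cy3 difference was 0.46 and the median Cy5 difference 0.055, and among the 2570 falls they were -0.40 and 0.022. Cy3 alone moved in the called direction for 5785 of 5803 probes, and by more than Cy5 for 5503. This agreement is partly built in, since the calls were made on the ratio of Cy3 to Cy5. When Cy3 alone was tested, 3479 of the 5803 calls (60.0%) passed. The share moved more in Cy3 than in Cy5 was 98.3% in the raised class, 96.8% in the lowered class and 91.0% in brightness class 1.

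How often a call was kept differed with its size and class. Each of the 3 F2RL2 arrays lay on the called side of the control mean for every called probe, as the threshold nearly requires, and the median difference of the rises was 0.50, 0.38 and 0.46 on replicates 1 to 3 and that of the falls -0.45, -0.39 and -0.40. Leaving out each of the 6 arrays in turn, 3285 of the 5803 calls (56.6%) passed every time. This held for 0.948% of calls under 0.25, 40.6% of those from 0.25 to 0.5, 88.5% of those from 0.5 to 1 and 505 of the 510 of 1 or more. By class it was 77.7% in the raised class, 72.5% in the lowered class and 53.6% in neither, and in probes raised by 2 or more it was 87.2%. The calls differed in size in the same order, with median absolute differences of 0.66, 0.56, 0.41 and, in probes raised by 2 or more, 0.86. The part of size in these shares was not tested. By brightness the share that passed every time ranged from 51.5% in class 1 to 60.6% in class 4. Under median centring in place of loess, with all arrays, 2161 of the 5803 calls (37.2%) passed in the same direction.

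The number of calls changed when single arrays were left out. Without control siRNA replicates 1, 2 or 3 there were 4034, 4414 and 3624 calls, of which 3977, 4297 and 3603 were among the 5803. Without F2RL2 siRNA replicates 1, 2 or 3 there were 4353, 5979 and 4067, of which 4079, 4951 and 3992 were. None of these fits called a probe of the 5803 in the opposite direction. That was nearly required, since the groups did not overlap for 5795 of the 5803, so it says nothing on reproducibility. On slide 1 alone, where F2RL2 siRNA replicate 1 was assumed to vary like the 3 controls, 8227 probes were called, with 4594 of the 5803 among them, 92.6% of the calls in the raised class, 87.0% of those in the lowered class and 66.7% of those in brightness class 1. Of the 510 changes of 1 or more, 509 passed there. With slide as a block over all 12 arrays the difference rests on the same 4 arrays, since the control arrays lay on 1 slide, and 4140 probes were called. These held 3481 (60.0%) of the 5803, with 74.7% of the calls in the raised class, 72.8% of those in the lowered class and 47.6% of those in brightness class 1.

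**Figure D5:**
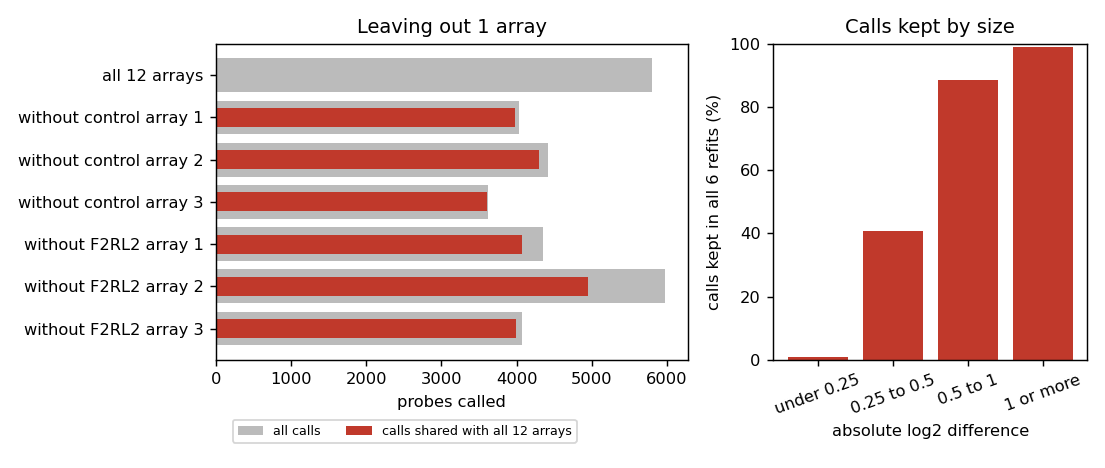
Left, number of probes called (grey) when 1 of the 6 arrays is left out, and how many of them were also called with all arrays (red); right, percent of the 5803 calls that passed in all 6 of these fits, by absolute log2 difference. Calls ranged from 3624 to 5979, and the share kept rose from 0.948% under 0.25 to 88.5% from 0.5 to 1 and 505 of 510 calls at 1 or more.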

How the data were processed

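The members, classes and lists were chosen with earlier results of these data known. Per the file headers, the authors' spots were quantified with Agilent Feature Extraction 9.5.3.1. The deposited median spot and local background intensity columns were used, and the deposited processed signal intensity (background-subtracted and dye-normalized by that software) served as an alternative. The log10 ratios that the authors deposited served only as a check of direction. The authors' deposited value table holds log2 ratios of processed Cy3 over Cy5, which it matched within 5e-10; its column medians ran from -0.28 to 0.16.

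Signals were background-corrected with normexp (offset 50), normalized within arrays by loess (weight 0 for 1417 control spots), and expressed as Cy3 over Cy5. Outlier spots were left out on their array. Of 43221 probes, 32346 lay well above background in 1 dye on at least 3 of 12 arrays. limma 3.58.1 (R 4.3.3; lmFit and eBayes, 1 coefficient per group over all 12 arrays) gave Benjamini-Hochberg adjusted p-values, and was checked on simulated data. Probes named by identifier were the 2 largest rises and 2 largest falls among probes called, without overlap between groups and well above background in both dyes on all 6 arrays; without gene names, the marker lists were not analysed here. Channel differences are of quantile-normalized signals. Alternatives changed the normalization, background, channel, filter, slide, replicate block, arrays, offset and class definitions. The number of arrays limits the precision.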

Additional observations from a re-analysis of the deposited data

How the results depend on the processing

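Each alternative kept more rises than falls among all calls. Median centring gave 2181 calls in all and 238 in the lowered class, medians of 0.18 and 0.13 in the raised and lowered classes, and 2.43% and 7.53% called in the dimmest and brightest classes. The median of the raised class was 0.14 with Cy3 alone. With slide as a block and with slide 1 alone, which rest on the same difference, it was 0.15 and that of the lowered class 0.14. In the dimmest class 3.40% were called with the slide block and 13.1% with the strict filter. Classes taken from the control arrays, which then enter class and difference with opposite sign, gave 643 raised and 624 lowered probes called, with medians of -0.25 and 0.12. A class threshold of 2 left 86 and 59 called, and a raised median of -0.026. Leaving out 1 array gave 3624 to 5979 calls, 3.45% to 6.0% in the dimmest and 14.3% to 24.2% in the brightest class, and medians of 0.10 to 0.13 in the raised and -0.023 to 0.072 in the lowered class. The 12 probes described singly kept direction and passed in all 16 settings. They were chosen as the largest changes on these same arrays, which nearly required this. Same-numbered control and F2RL2 arrays deviated together at 0.15, 0.20 and 0.046, each its array's best match. The third was little above the 0.023 of control array 3 with F2RL2 array 1. The labels state no pairing, and pairing was not tested. With a replicate block 4850 probes were called. In the dimmest class 296 of 6470 probes lay well above background in both dyes on all 6 arrays.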
